A study of Neurospora crassa with 12 samples.

Results

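The 6 genes described here are the *Neurospora crassa* genes *hsp70-1* (NCU09602), *hsp80* (NCU04142), *grp78* (NCU03982), *hsp60* (NCU01589), *hsp98* (NCU00104) and *hsp30* (NCU09364), which encode major heat shock proteins and chaperones. They were taken by identifier and not by any measured value, although with earlier results of these data known. All 6 were found among the 9015 genes with reads in an accompanying mRNA-seq library and among the 9658 annotated genes of the independent mRNA-seq. The study asked how mRNA and its decoding change when *adat2*, which encodes a subunit of the tRNA adenosine deaminase, is silenced. WT was the clock control strain 87-3 (*bd*, a). Si*adat2* was made in the strain 301-6 (*bd*, A, *his-3*) and carries at *his-3* an inverted repeat of *adat2* under the *qa-2* promoter, so that quinic acid (QA) induces dsRNA against *adat2*. Both strains were grown with 0.1% glucose and 0.01 M QA for 3 days on plates and 1 day in shaken liquid in constant light, and both carry *bd*. WT carries no construct and differs from the Si*adat2* host in mating type and *his-3*, and Si*adat2* is a homokaryon purified through microconidia, so that silencing and strain background cannot be told apart. The 8 mRNA-seq libraries are of 2 kinds, with 2 libraries of each strain in each kind. The accompanying mRNA-seq was made beside ribosome profiling, from mycelia given 50 µg/ml cycloheximide for 10 min. The independent mRNA-seq was made without cycloheximide and with other reagents, and the study names the Joint Genome Institute for it and no facility for the accompanying libraries. Kind of library, drug, kit and any difference of facility therefore cannot be told apart. The methods also describe a WT culture given 3-AT, an inhibitor that starves cells of histidine, in a section shared by tRNA-seq and mRNA-seq, and the labels of these libraries name no such treatment. The 4 ribosome profiling libraries hold values for codons and not for genes, and were not used here.

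Chaperones bind unfolded or partly folded proteins and keep them from aggregating. HSP70-1 is a cytosolic member of the Hsp70 family, which binds short hydrophobic stretches in cycles of ATP hydrolysis, and HSP80 belongs to the Hsp90 family, which acts later on kinases, receptors and other clients. GRP78 (BiP) is the Hsp70 of the endoplasmic reticulum (ER) and is known as a target of the unfolded protein response. HSP60 is the chaperonin of the mitochondrial matrix, HSP98 is related to the yeast Hsp104 disaggregase, and HSP30 is a small heat shock protein of the alpha-crystallin family. In fungi as in other eukaryotes, many of these genes are induced by heat through heat shock factor.

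The accompanying libraries held 961703 (WT replicate 1), 2361460 (WT replicate 2), 1547105 (Si*adat2* replicate 1) and 2777576 (Si*adat2* replicate 2) reads, and the depth of the independent libraries is unknown. The *adat2* transcript (NCU01888) had 8 and 25 reads in the WT pair against 16 and 90 under the Si*adat2* label, with a log2 fold change of 0.91 (SE 0.464, edgeR adjusted p = 0.116), so *adat2* was not lower under that label. Without Si*adat2* replicate 2, the library with 90 reads, this change was −0.16, and without Si*adat2* replicate 1 it was 1.41. With the experiment as a replicate block it was 0.96 (edgeR adjusted p = 0.0256). That fit was less strict, with 4153 of all genes called against 3669 in the reported fit. Whether reads of the induced dsRNA enter this count was not tested, and *adat2* is listed at 0 in all 4 independent libraries, where it shares a locus with the overlapping gene NCU01886. The strain of a library is therefore given below as its label. The material is labelled mycelia, and the conidiation markers *eas*, *con-6*, *con-8* and *con-10* were all detected. Their summed level was 4034 and 4196 FPKM in the accompanying WT libraries and 154650 and 125130 FPKM in those labelled Si*adat2*, where *eas* alone took 6.95% and 5.29% of the reads (0.122% and 0.127% in WT). The sum of *con-6*, *con-8* and *con-10* alone was 1851 and 1903 FPKM in WT and 28226 and 28079 FPKM under the Si*adat2* label in the accompanying libraries, and 2313 and 2260 FPKM against 4196 and 5623 FPKM in the independent ones. There *eas*, at 7859 and 7608 FPKM in the WT tables, is listed in neither table labelled Si*adat2*. It was not compared, since the comparison took only genes listed in all 4 tables, so that it has no direction there. The accompanying markers (4 of 4) and the independent ones (3 of 3) were called higher under the Si*adat2* label, although the independent calls of *con-6* and *con-8* were lost without WT replicate 1 (adjusted p = 0.221 and 0.0927) and without WT replicate 2 (adjusted p = 0.226 and 0.109), and the part of conidiation in the results below was not tested. In these whole cultures, a change in the cells present and a change in RNA per cell cannot be told apart.

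At the level of the single library, the 6 genes ranged from abundant to, for *hsp30* in the accompanying libraries, nearly undetected. Levels are given as FPKM, fragments relative to gene length and to the mapped reads of the library, so that levels of different genes can be compared per length. In both accompanying WT libraries the order was *hsp70-1*, *hsp80*, *grp78*, *hsp60*, *hsp98* and *hsp30*, from 421 ± 26.2 FPKM (SD, n = 2) for *hsp70-1* to 5.89 ± 5.21 FPKM for *hsp30*. Both independent WT libraries had the order *hsp70-1*, *grp78*, *hsp80*, *hsp98*, *hsp60* and *hsp30*. All 4 libraries labelled Si*adat2*, of either kind, shared a further order, with *grp78* first, then *hsp70-1*, *hsp80*, *hsp98*, *hsp60* and *hsp30*. Neighbours in these orders did not overlap between replicates within any strain and kind, except *grp78* and *hsp70-1* in the independent libraries labelled Si*adat2*, where *hsp70-1* at 305 FPKM in replicate 1 lay above *grp78* at 283 FPKM in replicate 2. Within each of those libraries *grp78* was still the higher, by 1.04 and 1.23 times. The 6 genes together took 0.256% and 0.237% of the reads in the accompanying WT libraries and 0.240% and 0.234% under the Si*adat2* label. Of the summed FPKM of the independent libraries they took 0.224% and 0.233% in WT and 0.182% and 0.144% under the Si*adat2* label.

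**Figure D1:**
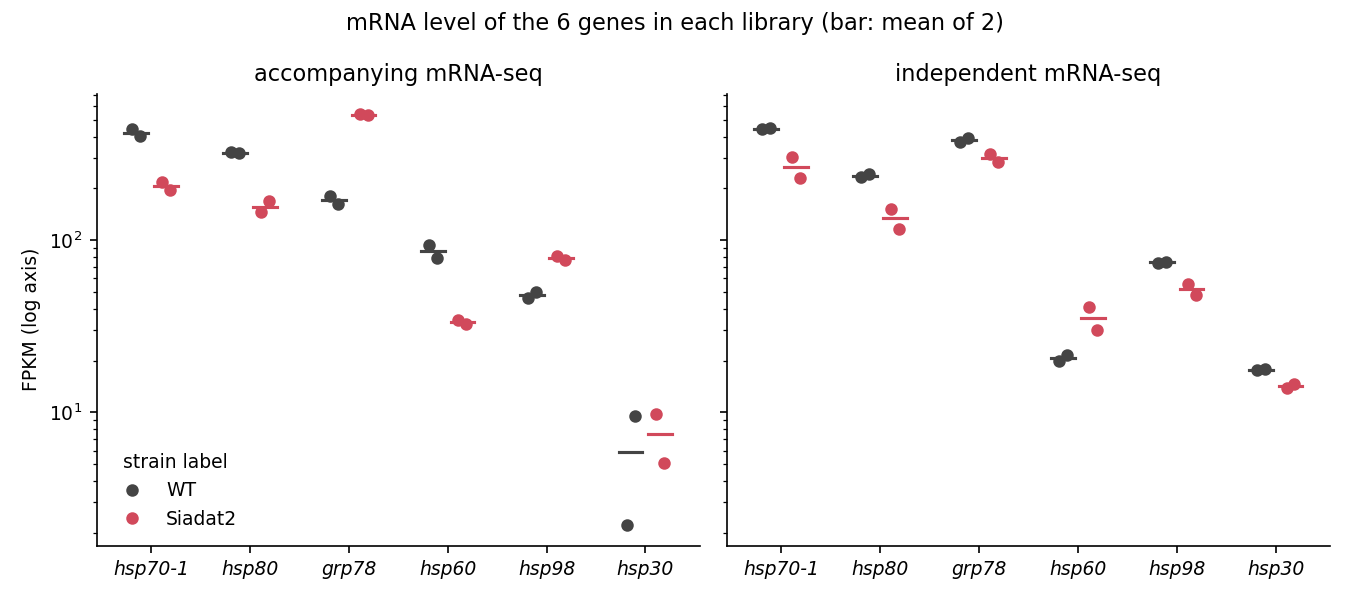
FPKM (log axis) of the 6 genes in each accompanying (left) and independent (right) library. Points are libraries, bars the mean of 2 libraries, grey WT and red the libraries labelled Si*adat2*. *grp78* rose from 171 to 536 FPKM on the left and lay at 380.2 and 300.01 FPKM on the right.

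Whether the strains differed was tested on counts with edgeR (accompanying, 7362 genes) and on log2(FPKM + 0.1) with limma (independent, 7547 genes), and all 6 genes passed the filter on low values in both. A call is an adjusted p under 0.05, adjusted over all genes tested. Of the 6 genes, 5 were called in the accompanying libraries (2 higher, 3 lower), where 49.8% of all genes were called (23.9% higher, 25.9% lower). Again 5 were called in the independent libraries (1 higher, 4 lower), where 49.2% of all genes were called (20.9% higher, 28.3% lower), and none of the 5 was called when either WT library was left out. In the accompanying libraries, the FPKM of the strains did not overlap for 5 of the 6 genes (78% of all genes tested), and in the independent libraries they did not overlap for any of the 6 (78.5% of all genes). By the ratio of strain means, the criterion of the study, 1 of the 6 was above 2 (23.7% of all genes) and 3 were under 0.5 (11.2%) in the accompanying libraries. None was past 2-fold in the independent ones (15.1% above 2 and 12.7% under 0.5). Fold changes of edgeR are relative to TMM scaling, which sets the median of all genes at 0.03 on the log2 scale. With scaling to the total count it was 0.32, every accompanying log2 fold change below was about 0.29 higher, and the share of higher genes among all calls went from 48.0% to 65.7%. The median of all genes in the independent libraries was −0.13.

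The cytosolic chaperone genes *hsp70-1* and *hsp80* were lower under the Si*adat2* label in both kinds of library. *hsp70-1* (chromosome II, 79724 to 82693, NC12) had 439.6 and 402.5 FPKM in the accompanying WT libraries and 218 and 195 FPKM in those labelled Si*adat2*, from 752 to 2131 reads a library. In the independent libraries it had 440.2 and 446 FPKM in WT and 305 and 230.0 FPKM under the Si*adat2* label. Within each kind, every WT library lay above every library labelled Si*adat2*. The log2 fold change of *hsp70-1* was −1.34 (SE 0.113, edgeR adjusted p = 1.22e-07) in the accompanying libraries, and −0.74 (SE 0.165, limma adjusted p = 0.0313) in the independent ones. *hsp80* (chromosome V, 4974497 to 4977515) had 326 and 319 FPKM in the accompanying WT libraries against 145 and 168 FPKM, and 233 and 242 FPKM in the independent WT libraries against 152 and 116 FPKM. The strains of *hsp80* lay apart in the same way within each kind. The log2 fold change of *hsp80* was −1.35 (SE 0.109, edgeR adjusted p = 7.07e-08), and −0.84 (SE 0.159, limma adjusted p = 0.0212). The independent calls rest on both WT libraries being present: without WT replicate 1 or 2 the adjusted p was 0.172 and 0.178 for *hsp70-1* and 0.13 and 0.145 for *hsp80*, at fold changes close to those above.

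The ER chaperone gene *grp78* went up in the accompanying libraries labelled Si*adat2* and lay a little below WT in the independent ones. *grp78* (chromosome VI, 2329825 to 2332792) had 180.03 and 163 FPKM in the accompanying WT libraries, from 401 and 880 reads, and 540.3 and 531 FPKM in those labelled Si*adat2*, from 1905 and 3336 reads. In rank by FPKM it went from place 672 of 7860 and 741 of 8376 listed genes in WT to place 232 of 8280 and 238 of 8882. The ratio of *grp78* to *hsp70-1* within a library, which no scaling changes, was 0.41 and 0.405 in WT and 2.48 and 2.73 under the Si*adat2* label. The accompanying log2 fold change of *grp78* was 1.34 (SE 0.108, edgeR adjusted p = 7.05e-08). The independent libraries gave *grp78* 370.3 and 390.1 FPKM in WT and 317 and 283 FPKM under the Si*adat2* label. These also did not overlap, but the log2 fold change of −0.34 (SE 0.096) had a limma adjusted p of 0.0535 and was not called. It was called when Si*adat2* replicate 1 was left out (−0.43, adjusted p = 0.0298) and when each library was centred on its median (−0.31, adjusted p = 0.0474), within a range of 0.0298 to 0.315 over all alternatives. The summed conidiation markers, given above, were also higher under the Si*adat2* label, and their part in the *grp78* result was not tested.

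The mitochondrial chaperonin gene *hsp60* had the opposite pair of directions. *hsp60* (chromosome II, 3012906 to 3015387) had 93.8 and 78.8 FPKM in the accompanying WT libraries, from 184 and 375 reads, and 34.5 and 32.7 FPKM in those labelled Si*adat2*, from 107 and 181 reads. Its rank went from place 1208 of 7860 and 1418 of 8376 to place 3105 of 8280 and 3322 of 8882. The log2 fold change of *hsp60* was −1.66 (SE 0.161, edgeR adjusted p = 5.7e-07), the largest in size of the 6 genes. In the independent libraries *hsp60* had 19.9 and 21.6 FPKM in WT and 40.6 and 30.1 FPKM under the Si*adat2* label, without overlap, and a log2 fold change of 0.75 (SE 0.179, limma adjusted p = 0.0364). That call was lost without WT replicate 1 (0.70, adjusted p = 0.196) and without WT replicate 2 (0.81, adjusted p = 0.163). In the independent Si*adat2* replicate 1, the higher of the pair, the deposited table places *hsp60* in a locus with transcripts of NCU01587, which it does not in the other 3 libraries.

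*hsp98* and *hsp30*, the genes of the disaggregase and the small heat shock protein, had the smallest accompanying changes. *hsp98* (chromosome III, 2634913 to 2638616) had 46.0 and 50.1 FPKM in the accompanying WT libraries and 80.8 and 77.0 FPKM in those labelled Si*adat2*, from 140 to 660 reads. The independent mRNA-seq gave *hsp98* 74.1 and 74.5 FPKM in WT and 55.7 and 48.1 FPKM under the Si*adat2* label. The strains did not overlap in either kind, and the directions were opposite, as for *grp78*. The accompanying log2 fold change of *hsp98* was 0.40 (SE 0.13, edgeR adjusted p = 0.0195). It was not called without WT replicate 1 (0.34, adjusted p = 0.088), without Si*adat2* replicate 1 (0.33, adjusted p = 0.146) or with DESeq2 (0.39, adjusted p = 0.121), while scaling to the total count gave 0.68 (adjusted p = 0.000364). The independent log2 fold change of *hsp98* was −0.52 (SE 0.102, limma adjusted p = 0.0229), and −0.53 and −0.52 (adjusted p = 0.16 and 0.163) without WT replicate 1 or 2.

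*hsp30* (chromosome I, 3586694 to 3588207) was close to the detection limit in the accompanying mRNA-seq, where WT gave 2 and 21 reads and the Si*adat2* label 14 and 13 reads. As RPM (reads scaled to the library total) these are 2.08 (95% Wilson interval 0.57 to 7.58) and 8.89 (5.82 to 13.6) in WT and 9.05 (5.39 to 15.2) and 4.68 (2.74 to 8.01), intervals that cover counting error only. WT replicate 1 is below the limit of 3.12 on that scale that 3 reads give. The strains overlapped, and no difference was detectable at this depth (log2 fold change −0.31, SE 0.592, edgeR adjusted p = 0.69), and the ratio of the mean FPKM of *hsp30*, 1.26, had the other sign. The sign of the *hsp30* change turned without WT replicate 2 (1.32) and without Si*adat2* replicate 2 (0.26). In the independent libraries *hsp30* had 17.6 and 17.8 FPKM in WT and 13.9 and 14.7 FPKM under the Si*adat2* label, which do not overlap, and a log2 fold change of −0.31 (SE 0.0819, limma adjusted p = 0.0487). This call was lost under 6 of the 11 alternatives, among them leaving out WT replicate 1 (−0.31, adjusted p = 0.313) or WT replicate 2 (−0.30, adjusted p = 0.331), over a range of 0.0345 to 0.331. The annotated end of *hsp30* overlaps NCU10352 by 147 bp, 9.71% of the gene, and that neighbour had 117 to 176 FPKM in the independent libraries. The use of strand in counting is not given in the sources used here, so that the reads of both genes cannot be told apart in the overlap.

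**Figure D2:**
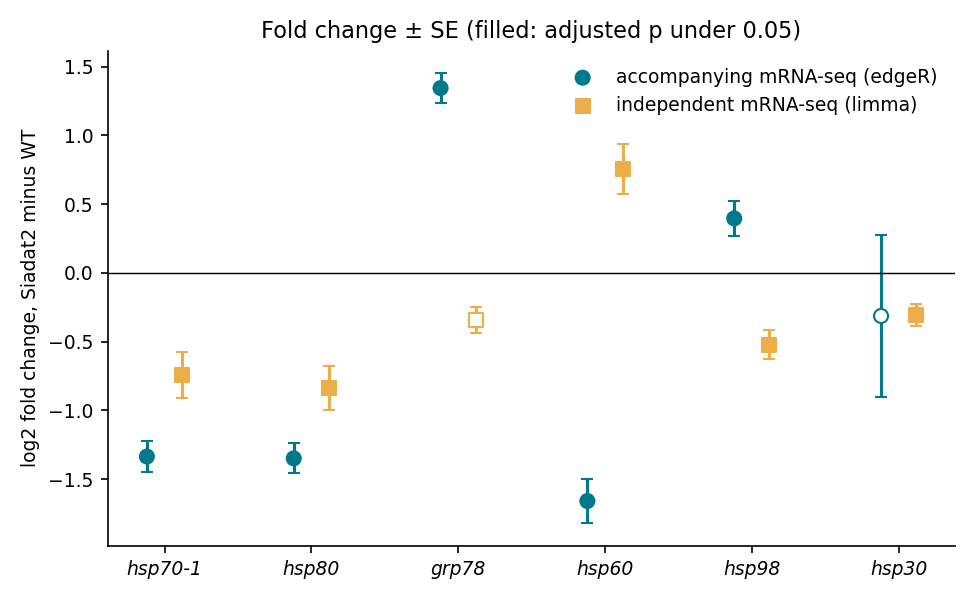
Log2 fold change (labelled Si*adat2* minus WT) of the 6 genes with its standard error, from edgeR on the accompanying counts (circles) and limma on the independent FPKM (squares), 2 libraries of each strain in each. Filled symbols have an adjusted p under 0.05. *hsp70-1* and *hsp80* lie below 0 in both kinds, *grp78* and *hsp98* above 0 only in the accompanying libraries, and *hsp60* above 0 only in the independent ones.

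Set side by side, 4 of the 6 genes were called in both kinds of library, against 1881 of the 6876 genes tested in both (27.4%). Of these 4, *hsp70-1* and *hsp80* were lower in both, and *hsp60* and *hsp98* were called in opposite directions. Of the 1881 genes, 595 (31.6%) were called in opposite directions. The difference between the kinds was not tested, because their values were normalised separately.

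**Figure D3:**
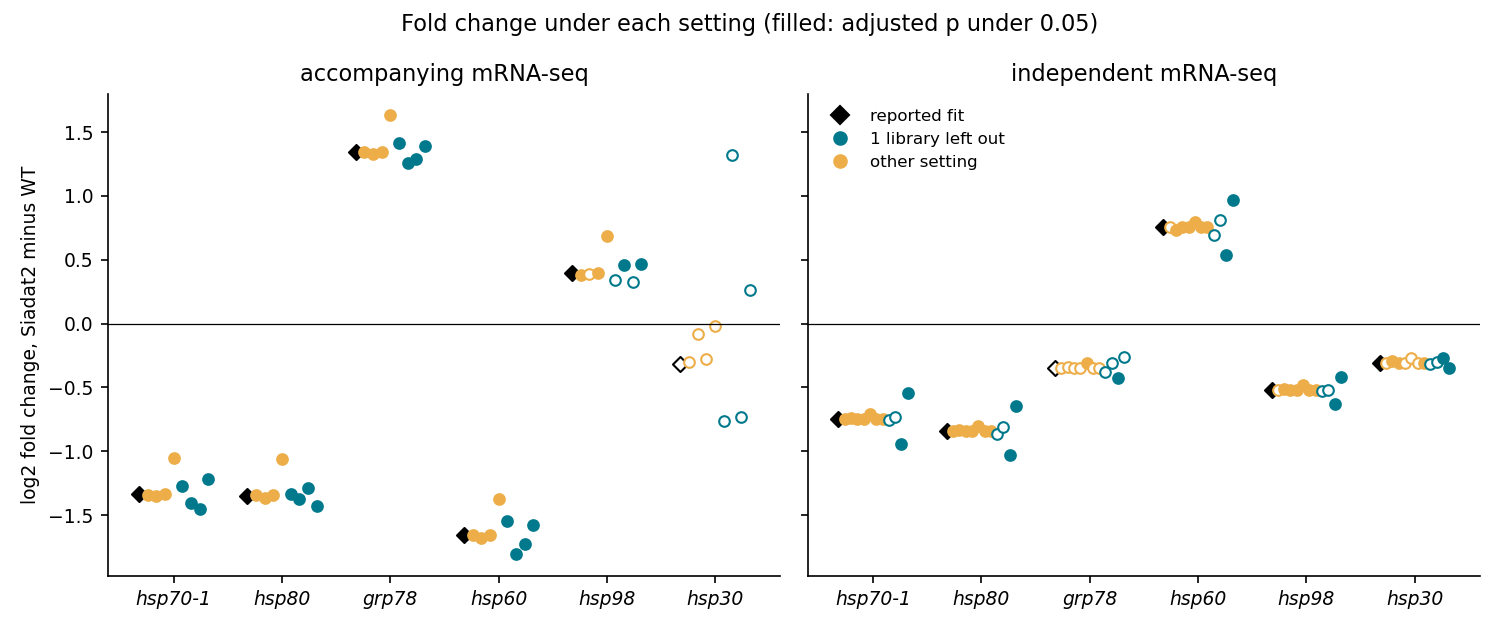
Log2 fold change (labelled Si*adat2* minus WT) of the 6 genes in the fit reported (diamonds), with 1 library left out (blue) and under other settings (yellow), for the accompanying (left) and independent (right) libraries. Filled symbols have an adjusted p under 0.05. The accompanying *hsp30* change runs from −0.77 to 1.32, and in the independent libraries the blue symbols of the 2 fits without a WT library are open for all 6 genes.

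Of 34 other chaperone genes, taken from the protein descriptions in the mass spectrometry list of the study, 17 were called in the accompanying libraries (5 higher, 12 lower), where 49.8% of all genes were called (23.9% higher, 25.9% lower), with a median log2 fold change of −0.14 (0.03 over all genes). With scaling to the total count the calls were 8 higher and 9 lower and the median 0.15. In the independent libraries 22 were called (7 higher, 15 lower), where 49.2% of all genes were called (20.9% higher, 28.3% lower), with a median of −0.42 (−0.13 over all genes), and 1, *hsp70-2*, was called without WT replicate 1 or without WT replicate 2. The shares of all genes were not matched in mRNA level to these 34, whose proteins are in that list, and level affects how readily a gene is called. Of the 34 genes, 11 were called in both kinds (27.4% of all genes tested in both). Among these 11, 3 were lower in both and 1 higher in both, 5 were lower in the accompanying and higher in the independent libraries as *hsp60* was, and 2 were higher in the accompanying and lower in the independent libraries.

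The Hsp70 system (12 genes) had 2 higher and 6 lower in the accompanying libraries, or 3 higher and 5 lower with total-count scaling, and 6 higher and 0 lower in the independent ones. Of all genes, 23.9% were called higher and 25.9% lower in the first kind, and 20.9% and 28.3% in the second, and the counts of each family are to be read against these shares. *hsp70-2* (NCU02075, described as heat shock protein 70) had 699.7 and 594 FPKM in the accompanying WT libraries and 383 and 371 FPKM in those labelled Si*adat2*, and 55.4 and 65.7 FPKM against 209 and 175 FPKM in the independent ones. Both kinds thus separated the strains for *hsp70-2*, in opposite directions. The log2 fold change of *hsp70-2* was −1.08 (SE 0.111, edgeR adjusted p = 1.01e-06) and 1.66 (SE 0.146, limma adjusted p = 0.00367). NCU00692, described as a dnaK chaperone and so of the Hsp70 type, changed likewise (−1.09 with an SE of 0.167 and 1.57 with an SE of 0.226). NCU01516, the mitochondrial co-chaperone GrpE that exchanges nucleotide on Hsp70, had a log2 fold change of −1.16 (SE 0.312, edgeR adjusted p = 0.00598) and 0.96 (SE 0.11, limma adjusted p = 0.00653), but the first was not called without Si*adat2* replicate 1 (−0.93, adjusted p = 0.0651) or with DESeq2 (−1.22, adjusted p = 0.0519). NCU04334, described as a chaperonin, had −1.08 (SE 0.18) and 1.13 (SE 0.134). *hsp70-5* (NCU08693), named after its values were seen, had −0.70 (SE 0.11) and 0.89 (SE 0.131). Of these independent calls, those of NCU00692, NCU01516, NCU04334 and *hsp70-5* were lost without WT replicate 1 (adjusted p = 0.0972, 0.0901, 0.0821 and 0.107) and without WT replicate 2 (adjusted p = 0.0847, 0.0896, 0.076 and 0.091).

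Among the isomerases (6 genes), which catalyse disulphide or prolyl bond changes during folding, 2 were higher and 1 lower in the accompanying libraries, or 2 higher and 0 lower with total-count scaling, and 0 higher and 5 lower in the independent ones, beside the shares of all genes just given. The accompanying counts of these 6 genes are near those shares. NCU09223, a protein disulphide isomerase, the class of enzyme that forms disulphide bonds in the ER, had 148.0 and 147.8 FPKM in the accompanying WT libraries against 312 and 339 FPKM, and 313 and 329.9 FPKM in the independent WT libraries against 181 and 136 FPKM. It was thus high under the Si*adat2* label in the first kind and low in the second, as *grp78* and *hsp98* were. The log2 fold change of NCU09223 was 0.83 (SE 0.11, edgeR adjusted p = 1.5e-05) and −1.04 (SE 0.169, limma adjusted p = 0.0148). The other gene described as a disulphide isomerase was called in neither kind. It had −0.07 (SE 0.162, edgeR adjusted p = 0.746) and −0.50 (SE 0.161, limma adjusted p = 0.073). NCU02455, an FKBP-type prolyl isomerase named after its values were seen, had 0.61 (SE 0.117) and −0.84 (SE 0.121). NCU03335, an ER-associated DnaJ protein also named after its values were seen, had 0.89 (SE 0.19, edgeR adjusted p = 0.00117) and an uncalled 0.06 (SE 0.123, limma adjusted p = 0.697), which turned to −0.06 without Si*adat2* replicate 2. NCU01200, a prolyl isomerase of the B type, had 706 and 687 FPKM in the independent WT libraries against 130.4 and 297 FPKM (log2 fold change −1.82, SE 0.444, limma adjusted p = 0.0389). In the accompanying libraries NCU01200 had −0.36 (SE 0.119, edgeR adjusted p = 0.0211), and −0.07 (adjusted p = 0.65) with scaling to the total count. Without any single accompanying library the change of NCU01200 was also not called (adjusted p from 0.0583 to 0.112), nor with DESeq2 (adjusted p = 0.0951). The independent change of NCU01200 was −1.23 without Si*adat2* replicate 1 and −2.42 without Si*adat2* replicate 2. The independent calls of NCU09223, NCU02455 and NCU01200 were lost without WT replicate 1 (adjusted p = 0.107, 0.103 and 0.177) and without WT replicate 2 (adjusted p = 0.119, 0.114 and 0.174).

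The gene that fell most of the 34 in both kinds was NCU07232, which the study's protein list also describes as heat shock protein 30 but which is a locus distinct from *hsp30*. NCU07232 had 100.03 and 88.7 FPKM in the accompanying WT libraries and 9.54 and 17.4 FPKM in those labelled Si*adat2*, from 106, 228, 16 and 52 reads. NCU07232 had, in the independent mRNA-seq, 56.3 and 55.9 FPKM in WT and 4.31 and 1.41 FPKM under the Si*adat2* label. The log2 fold change was −3.02 (SE 0.234, edgeR adjusted p = 4.62e-08) and −4.44 (SE 0.578, limma adjusted p = 0.00882), the second −4.44 and −4.45 (adjusted p = 0.0789 and 0.0828) without WT replicate 1 or 2, −5.22 without Si*adat2* replicate 1 and −3.67 without Si*adat2* replicate 2. So of the pair of genes with this description, NCU07232 was far lower in all 4 libraries labelled Si*adat2*, and *hsp30* changed little or not detectably. NCU00714, the Hsp70 to Hsp90 adaptor STI1, had a log2 fold change of −1.16 (SE 0.15, edgeR adjusted p = 1.27e-05) and an uncalled −0.13 (SE 0.0815, limma adjusted p = 0.256), the latter called without Si*adat2* replicate 1 (−0.20, adjusted p = 0.0429). The chaperonins (9 genes) were NCU04334 and 8 subunits of T-complex protein 1, the cytosolic ring that folds actin and tubulin. Of these 9, 0 were higher and 2 lower in the accompanying libraries (log2 fold changes from −1.08 to 0.34), or 2 higher and 2 lower with total-count scaling and 1 higher and 3 lower with the experiment as a replicate block, and 1 was higher and 6 were lower in the independent ones (−0.66 to 1.13).

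**Figure D4:**
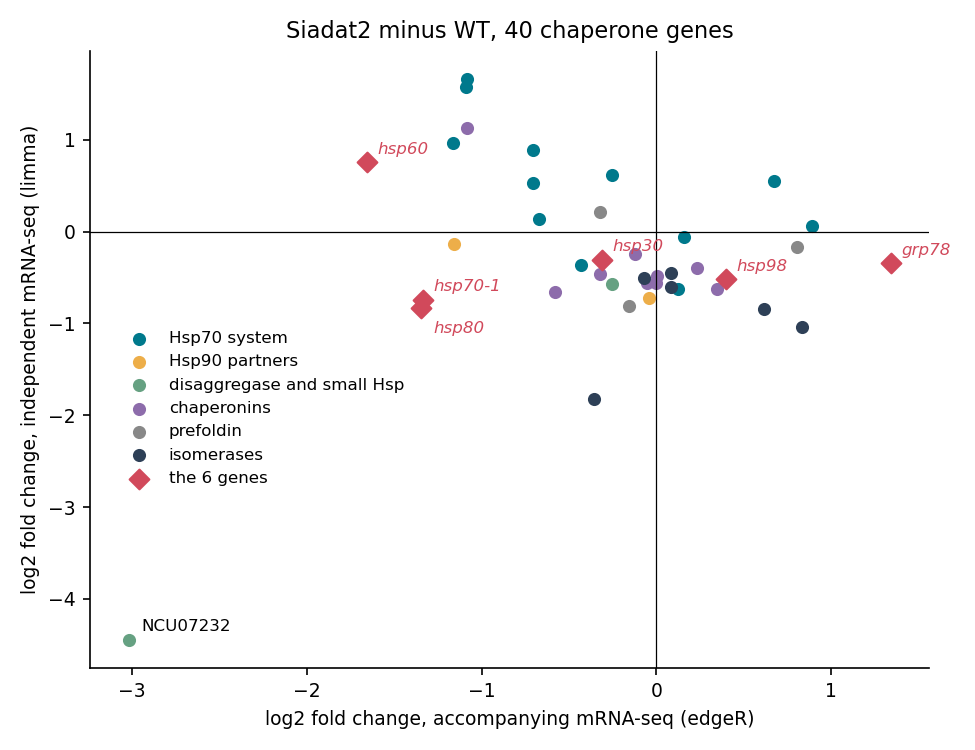
Log2 fold change (labelled Si*adat2* minus WT) in the accompanying (horizontal) against the independent (vertical) libraries, for the 6 genes (red diamonds) and the 34 other chaperone genes coloured by family. *hsp60* lies at the upper left with *hsp70-2* and other genes of the Hsp70 system, *grp78* and *hsp98* at the lower right with isomerases, and NCU07232 at −3.02 and −4.44.

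The likeness of expression patterns was described by Pearson's r of log2(FPKM + 0.1) over the 8 libraries, each gene centred on its mean within each kind of library. As the libraries of a strain and kind share their deviations, r mostly reflects the pair of strain differences, and it is given as a description. *hsp70-1* and *hsp80* were alike (r = 0.978), as were *grp78* and *hsp98* (r = 0.895), and *hsp60* ran against *grp78* (r = −0.902) and *hsp98* (r = −0.923). Of 7170 genes, those most like *hsp70-1* were NCU02936 (r = 0.998), NCU05846 (r = 0.996) and *map-1* (r = 0.995), and those most like *hsp80* were NCU09175 (r = 0.997), NCU06033 (r = 0.995) and NCU00414 (r = 0.994). The genes nearest to *grp78* were NCU09259, NCU07158 and *gh3-3* (r = 0.997, 0.996 and 0.996), and those nearest to *hsp60* were NCU08441, *rap-1* and *met-8* (r = 0.996, 0.993 and 0.993). For *hsp98* they were NCU06999, NCU03357 and NCU03091 (r = 0.995, 0.995 and 0.994), and for *hsp30*, whose accompanying values rest on few reads, NCU10519, NCU07337 and NCU01757 (r = 0.983, 0.976 and 0.969).

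A property of the sequence that played no part in the choice of the genes is the codon bias index (CBI), which is near 0 for random codon usage and near 1 for extreme bias, and which bears on the study's question about decoding. It was 0.821 for *hsp60*, 0.779 for *hsp80*, 0.755 for *hsp70-1*, 0.617 for *grp78*, 0.476 for *hsp30* and 0.379 for *hsp98*, against a median of 0.211 over 9015 genes. For *hsp60*, 99.7% of all genes had a lower CBI, and for *hsp98* 81.6%. The 4 genes with the highest CBI exceeded the value that the top 10% of genes pass (0.476), as did 17 of the 34 other chaperone genes. Among the 6, *hsp60*, *hsp80* and *hsp70-1*, with the highest CBI, had accompanying log2 fold changes of −1.66, −1.35 and −1.34. *grp78*, *hsp30* and *hsp98* had 1.34, −0.31 and 0.40. In the independent libraries the 6 genes had, in the same order, 0.75, −0.84, −0.74, −0.34, −0.31 and −0.52. The independent call of *hsp60* was lost with the replicate block. How CBI relates to these changes was not tested.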

How the data were processed

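For the accompanying mRNA-seq the authors discarded reads shorter than 25 nt and those of rRNA and tRNA, mapped the rest with Bowtie2 to coding sequences with 100 bp on each side, and deposited counts of unique reads per gene, an FPKM and the CBI as a score of CodonW. The independent tables, as deposited, hold FPKM and coverage, a signal, of each transcript (at most 2 mismatches), and the submitters' notes name TopHat2 and Cufflinks. Of the 24 FPKM of the 6 genes there, 15 lie outside their own deposited confidence interval, which was therefore not used. Genes were placed on assembly NC12 by locus tag. Transcripts of a gene were summed.

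Counts were tested with edgeR 4.0.16 (TMM, filterByExpr with a minimum count of 10, quasi-likelihood; SE as the fold change over the root of F), and log2(FPKM + 0.1), for mean FPKM of 1 or more, with limma 3.58.1 (variance trend) in R 4.3.3, in separate fits per kind, adjusted by Benjamini-Hochberg. Both were tested on simulated data. DESeq2 1.42.0, other scalings, filters and pseudocounts, a replicate block and leaving out each library were alternatives. The accompanying replicates were taken as separate experiments, with a library of each strain in each (r = 0.221 between same-numbered deviations). This follows the account of the ribosome profiling, since the first accompanying libraries carry no replicate number in their labels. The independent replicates are also described as biological ones, and whether equal numbers there mark a shared experiment is not given in the sources used here. The smallest exact two-sided permutation p of 2 against 2 libraries is 0.333, so none is given. Members, lists and rules were chosen with earlier results of these data known. Named beside the 6 genes were *adat2*, the conidiation markers, up to 6 other chaperones per kind with the largest called changes, and the 3 genes most like each of the 6. Promoter motifs were not searched here.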

Additional observations from a re-analysis of the deposited data

Results flagged for a closer look

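For 10 of the 17 chaperone genes named, both libraries labelled Si*adat2* lay on the other side of both WT libraries in the accompanying mRNA-seq than in the independent mRNA-seq. Of these 17, the 11 beside the 6 heat shock genes were named for the size of their called changes or after their values were seen, so that the count is no measure of how common this is. Over whole lists, by the deposited FPKM, it held for 3 of the 6 heat shock genes, 20 of the 34 other chaperones and 28.7% of the 6876 genes tested in both kinds. These FPKM carry no TMM scaling, and some of the 20 had the same sign of log2 fold change in both kinds. Calls in opposite directions were fewer, at 2 of the 6, 7 of the 34 and 595 of the 6876 genes. The difference between the kinds of library was not tested for any of them, and drug, kit, facility and processing cannot be told apart from it. The log2 fold changes of the 3 heat shock genes concerned were 1.34 and −0.34 for *grp78*, −1.66 and 0.75 for *hsp60*, and 0.40 and −0.52 for *hsp98*, accompanying first. Among the other chaperones they were −1.08 and 1.66 for *hsp70-2*, −0.70 and 0.89 for *hsp70-5*, −1.09 and 1.57 for NCU00692, −1.16 and 0.96 for NCU01516 and −1.08 and 1.13 for NCU04334. In the other order of signs they were 0.83 and −1.04 for NCU09223 and 0.61 and −0.84 for NCU02455.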

How the results depend on the processing

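Of 48 accompanying fold changes of the 6 genes under alternatives, 43 kept direction and side of the threshold, and of 66 independent ones 48 did. Some accompanying alternatives were less strict than the reported fit, so that a call kept there is weak evidence of stability. For *hsp70-1* the edgeR adjusted p was 1.22e-07 in the reported fit, 7.33e-76 with the replicate block and 2.94e-29 without the filter. With DESeq2, 11 of the other chaperones were called instead of 17, and *hsp98* had 0.39 (adjusted p = 0.121). Leaving out 1 accompanying library, *hsp98* ran from 0.33 to 0.47 and *hsp30* from −0.77 to 1.32, reversed at 1.32 and 0.26. NCU01888 (*adat2*) ran from −0.16 to 1.41 there and the independent NCU03335 from −0.064 to 0.19.

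Leaving out 1 independent library, the calls ran from 0 to 6 of the 6 genes, 1 to 29 of the other chaperones and 1001 to 4506 of all genes, lowest without a WT library (1059 and 1001 genes), the pair whose replicates differed least (median log2 difference 0.0758 against 0.234 under the Si*adat2* label). The fold changes then ran from −0.95 to −0.54 for *hsp70-1*, −1.03 to −0.64 for *hsp80*, −0.43 to −0.26 for *grp78*, 0.54 to 0.97 for *hsp60*, −0.63 to −0.41 for *hsp98* and −0.35 to −0.27 for *hsp30*, and 0 to 1 genes were past 2-fold. Without either WT library 2832 and 2844 genes still had an unadjusted p under 0.05. Centring made *grp78* a call (−0.31) and ended that of *hsp30* (−0.27), which was also lost without a filter (−0.31) and without a variance trend (−0.31).

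Replicates share only a number in the independent labels (r = 0.0087 between same-numbered deviations). With the replicate block 2 of the 6 genes were called in the independent libraries, and the calls of *hsp60* (0.75), *hsp98* (−0.52) and *hsp30* (−0.31) were lost. The independent chaperonins then had 1 higher and 3 lower. In the accompanying libraries, whose numbers were taken to mark experiments, the block called 19 of the other chaperones and changed no call of the 6 genes. It called *adat2* higher (0.96, edgeR adjusted p = 0.0256), as did no filter (0.92) and total-count scaling (1.21). The rise of *adat2* rests on Si*adat2* replicate 2, without which the change was −0.16. Depth limits *hsp30* and *adat2*, with 2 to 90 reads, and is unknown for the independent libraries. The cause of these shifts was not tested.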
